A study of Homo sapiens with 18 samples.

Results

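The comparison described here asked whether steering a base editor to the same splice site of NRF1 changed the transcriptome differently when the deaminase differed. For every gene, the log2 fold change between the NRF1 guide and the intergenic guide was taken with the SpCas9 adenine base editor (SpABE) and with the SpCas9 cytosine base editor (SpCBE), and the second was subtracted from the first. A positive difference therefore means that the gene moved upward with SpABE relative to SpCBE. It used 12 of the 18 libraries of the series, 3 in each of 4 groups, and 17743 of 58870 genes passed the filter on low counts and were tested.

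The study perturbed an alternative exon of NRF1 and read the outcome by mRNA sequencing. All groups were HEK293T cells, a human embryonic kidney line that carries the SV40 large T antigen, and in each group 750000 cells were transfected with 1 vector named for both its editor and its guide, selected with puromycin for 48 hours and lysed 72 hours after transfection. The SpABE groups received the ABE8e deaminase fused to nickase SpCas9 (nSpCas9), with either the NRF1 guide or the intergenic guide, and the SpCBE groups received the evoCDA1 deaminase on the same nickase with their own NRF1 guide or the same intergenic guide. The remaining 6 libraries carried ABE8e on nSaCas9. The cells were transfected populations and not clones, the libraries of a group were not described as separate cultures, so a p-value here reflects how far these particular libraries vary, in part perhaps for technical reasons.

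NRF1 (nuclear respiratory factor 1) is a transcription factor that binds GC-rich elements in promoters and is known for its control of nuclear genes of mitochondrial respiration and of many housekeeping genes. An adenine base editor deaminates adenine and yields A-to-G changes, while a cytosine base editor deaminates cytosine and yields C-to-T changes, so both can destroy the invariant AG at the end of an intron from opposite strands. When a 3′ splice site is lost, the exon after it is commonly skipped. The gene counts do not resolve exon 7, and its skipping in these libraries was not measured here.

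Exon 7 of NRF1 is a coding exon of 198 bases, 66 codons, at chr7:129710374-129710571 on the plus strand (hg38, exon 7 of 11). Both NRF1 guides lie across its acceptor and are shown because they are what differs between the groups beside the deaminase, and each matched the hg38 genome perfectly at 1 place. In the guides the capitals mark the 2 bases that lie on the acceptor dinucleotide, at positions 6 and 7 counted from the guide's 5′ end in both. In the acceptor stretch, which covers chr7:129710344-129710403 on the plus strand, capitals mark exon bases.
SpABE NRF1 guide, chr7:129710367-129710386, plus strand, PAM agg: gtgacAGgtttcatggaccc
SpCBE NRF1 guide, chr7:129710359-129710378, minus strand, PAM cgg: gaaacCTgtcaccaaatgac
NRF1 intron 6 and exon 7 junction: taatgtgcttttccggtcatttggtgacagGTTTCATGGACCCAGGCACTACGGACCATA
Intergenic guide of both editors, chr13:102967577-102967596, plus strand, PAM tgg: ttgactgcacacaactgggc
The SpABE guide covers 13 exon and 7 intron bases and the SpCBE guide 5 exon and 15 intron bases. The intergenic guide lies 63577 bases from the nearest annotated gene (ENSG00000278445, GENCODE 44).

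The 12 libraries held between 31676102 and 40687447 counts, and mitochondrial genome messages took 0.939% to 1.16% of them. The 8 HEK293 markers summed to between 1450 and 1560 CPM, counts scaled to a common library size, over the 4 groups and none was at 0, whereas the 4 hepatocyte markers summed to at most 0.518 CPM, the 5 blood markers to at most 3.4 CPM, the 7 fibroblast markers to at most 24 CPM and the 5 colon and breast epithelium markers to at most 12.9 CPM. Among the blood and fibroblast genes, PTPRC, CD3E, HBB, DCN, FAP and COL1A2 stayed at or below 0.109 CPM in every library. In bulk samples, fewer cells of a type and less RNA per cell cannot be told apart. The intergenic libraries of the 2 editors already differed in 1098 genes (6.19% of those tested), 472 higher (2.66%) and 626 lower (3.53%) with SpABE, and the difference between the control levels is given beside several members below.

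The 2 NRF1 effects differed in 253 genes, 1.43% of the genes tested, by edgeR's quasi-likelihood test with a Benjamini-Hochberg adjusted p under 0.05 and an absolute difference over 0.5 on the log2 scale, here termed called. In 152 genes (0.857%) the difference was positive and in 101 (0.569%) it was negative. The negative count was 61 with DESeq2 and 168 without the low-count filter. At the adjusted p alone, 1590 genes (8.96%) passed, of which 806 (4.54%) were higher and 784 (4.42%) lower. These 4.54% and 4.42% are the shares to set beside the counts of higher and lower list members below. Over all genes tested the median difference was -0.01 and 5% of genes lay below -0.53 and 5% above 0.53. The median standard error (SE) of the difference was 0.09, and 0.06 among the 11410 genes that averaged at least 5 CPM. Of the called genes 112 reached that level, 73 positive and 39 negative, and 141 were below it. With each of the 12 libraries left out in turn, all 253 kept their direction, and 125 (49.4%) remained called in every one of the 12 fits, 75 of the 112 at 5 CPM or more (67%) and 50 of the 141 below (35.5%).

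Each editor alone changed more genes than the difference did. With SpABE, 1137 genes were called (6.41%), 303 higher (1.71%) and 834 lower (4.7%) under the NRF1 guide. With SpCBE, 789 were called (4.45%), 149 higher (0.84%, and 99 genes with DESeq2) and 640 lower (3.61%). The 2 effects share no library, and 542 genes were called in the same direction in both, 47.7% of the SpABE calls and 68.7% of the SpCBE calls. Only 7 genes were called in opposite directions. Of these, HSPB8 and SH2D3C rose with SpABE and fell with SpCBE, while CLCA2, MYPN, CYGB, CYP4F3 and the pseudogene HSD3BP5 fell with SpABE and rose with SpCBE. HSPB8 and CYP4F3 were the only members of the 7 that averaged at least 5 CPM.

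**Figure D1:**
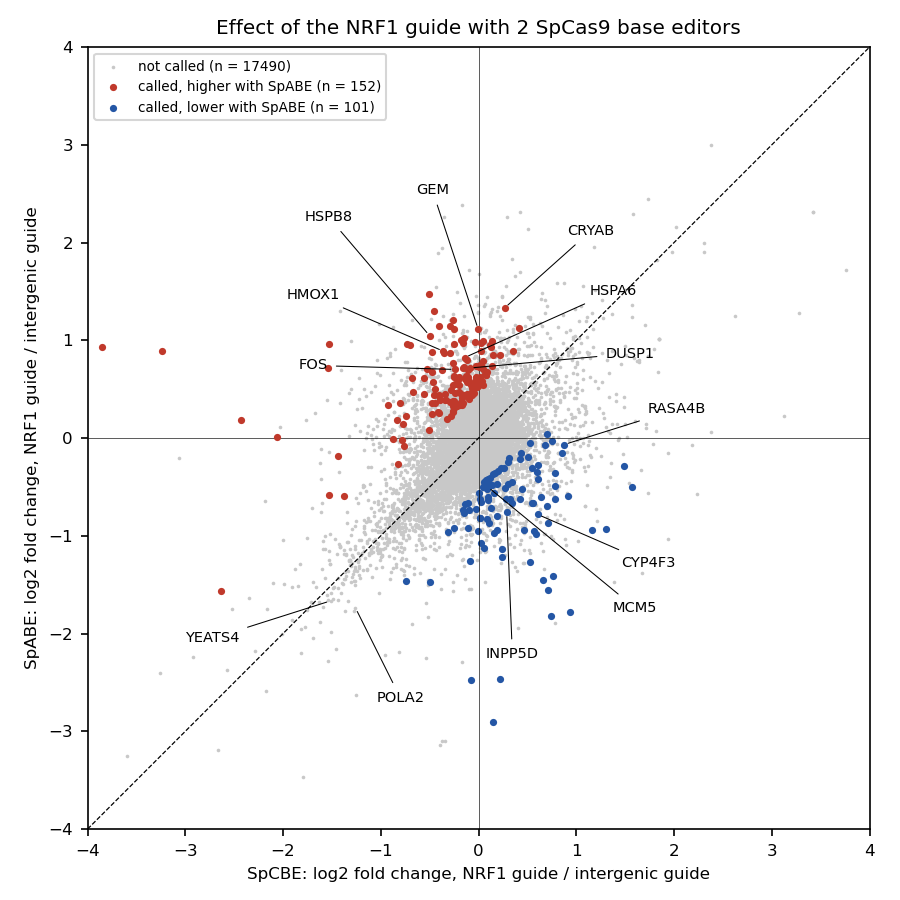
Effect of the NRF1 guide with SpCBE (x axis) and with SpABE (y axis), as log2 fold change against the intergenic guide, for the genes tested. Red points are the 152 genes called with a positive difference, blue points the 101 with a negative one, grey points all others, and the dashed line marks equal effects. 20 genes lie outside the axes, which end at 4. Called genes lie off the line on both sides of it, and YEATS4, one of the genes that fell with both editors, lies close to it.

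NRF1 itself rose under its guide with both editors. It measured 26.7, 28.8 and 28.5 CPM in the SpABE intergenic libraries and 35.7, 37.5 and 41.6 CPM in the SpABE NRF1 libraries. In the SpCBE libraries it measured 24.4, 25 and 26 CPM with the intergenic guide and 38.3, 39.5 and 43.8 CPM with the NRF1 guide. Guide groups did not overlap for either editor. The rise was 0.45 on the log2 scale with SpABE (adjusted p = 3.82e-07) and 0.69 with SpCBE (adjusted p = 4.15e-10), and the difference of -0.24 (SE 0.08) missed the threshold at an adjusted p of 0.0559, with a 95% interval from -0.40 to -0.07. That call depended on the settings, since the adjusted p ranged from 0.0128 to 0.182 over 23 alternatives and was under 0.05 in 8 of them. Among these were the fits without SpABE intergenic replicate 1 (0.0411), without SpABE NRF1 replicate 3 (0.0128) and without SpCBE NRF1 replicate 1 (0.0374). Gene counts say nothing of the ratio of isoforms with and without exon 7.

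The 3 genes the study follows as NRF1 targets fell with both editors. PUDP, a phosphatase of pseudouridine monophosphate, measured 14.1, 15 and 14.4 CPM in the SpABE intergenic libraries and 5.5, 5.18 and 5.32 CPM under the NRF1 guide. With SpCBE it went from 15.2, 16.3 and 15.6 CPM to 5.59, 6.81 and 5.72 CPM. The fall left 0.368 of the control level with SpABE and 0.384 with SpCBE, and the difference was -0.06 (SE 0.10, adjusted p = 0.791, 95% interval -0.29 to 0.16). It turned to 0.03 without SpCBE NRF1 replicate 2, with an adjusted p of 0.898. ANKRD26, an ankyrin-repeat protein of the centriole, fell to 0.328 and 0.342 of its control level with a difference of -0.06 (SE 0.09, adjusted p = 0.773, interval -0.26 to 0.14). YEATS4, a reader of acetylated histones in chromatin-modifying complexes, fell to 0.315 and 0.351 with a difference of -0.15 (SE 0.09, adjusted p = 0.349, interval -0.35 to 0.05). A difference that misses the threshold does not show equal effects, and the intervals give the sizes these libraries allow. These genes were chosen by the study as responders to loss of the exon.

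**Figure D2:**
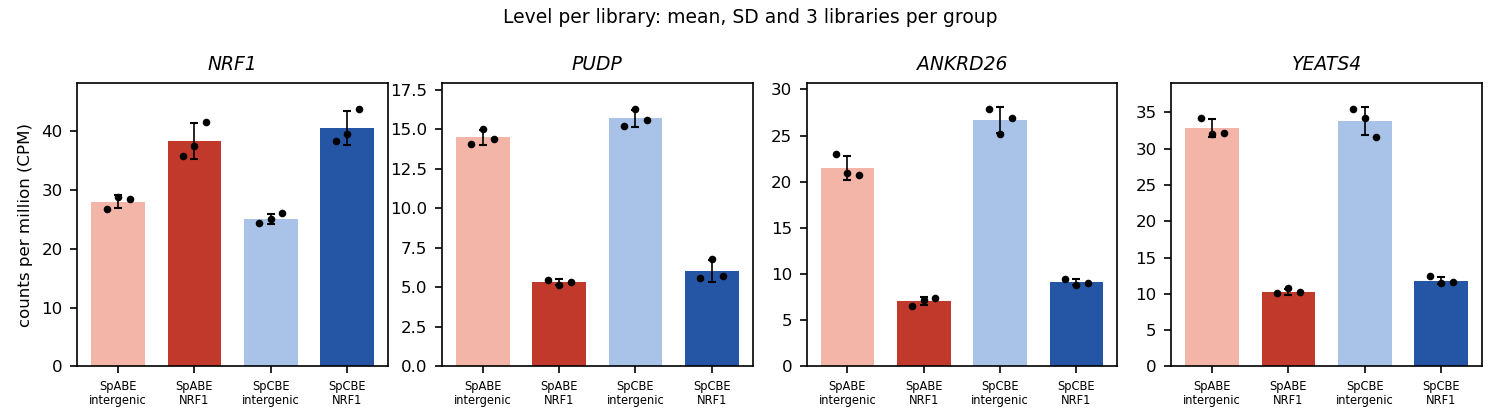
Levels of NRF1, PUDP, ANKRD26 and YEATS4 in CPM (y axis) in the 4 groups (x axis). Bars are means of 3 libraries, error bars are SD and points are libraries. NRF1 was higher and the other 3 genes were lower under the NRF1 guide with both editors.

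The genes that the nSaCas9 editor moved gave a wider view of the shared response. They were chosen by a contrast of the 6 nSaCas9 libraries. The filter, scaling and estimate of spread behind it also used the 12 libraries. Of 1074 such genes (6.05%), the 854 called lower (4.81%) under the NRF1 guide with nSaCas9 had a median change of -0.66 with SpABE and -0.59 with SpCBE, and a median difference of -0.03 beside -0.01 over all genes. At the adjusted p, 25 of them had a higher and 43 a lower difference (2.93% and 5.04%, beside 4.54% and 4.42% of all genes). The 220 genes called higher (1.24%) with nSaCas9 had medians of 0.33 and 0.35 and a median difference of -0.05, with 5 higher and 3 lower. Among 20 textbook NRF1 targets, most of them genes of the respiratory chain, mitochondrial protein import and mitochondrial DNA, 1 passed the test of the difference. This was ALAS1, the first enzyme of haem synthesis, which fell by 0.24 with SpABE and by 0.39 with SpCBE, a difference of 0.15 (SE 0.04, adjusted p = 0.022). Its call was lost without SpABE intergenic replicate 2, SpABE NRF1 replicate 1 or 3, or SpCBE NRF1 replicate 1, where the adjusted p was 0.0564 to 0.0801, and 2 genes of the list passed without SpCBE NRF1 replicate 3.

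Immediate-early genes stood higher with SpABE. These genes, many of them transcription factors or phosphatases of the MAP kinase cascade, are known to be transcribed within minutes of growth factor or stress signals, without new protein synthesis. Of 33 tested, 20 had a higher difference (60.6%, beside 4.54% of all genes) and 1 a lower one, and 14 were called. Their median difference was 0.47, from a median change of 0.39 with SpABE and -0.09 with SpCBE. With SpABE, 25 of the 33 had all NRF1 libraries above all intergenic libraries (21.7% of all genes did), and with SpCBE 2 of the 33 did (20.3%) while 13 had them all below (18.5%). The count of higher members was 20 to 22 under the 23 alternatives. With nSaCas9, 14 of the 33 rose under the NRF1 guide at the adjusted p and 0 fell. Of all genes 16.9% rose and 15.5% fell there. The median change of the list with nSaCas9 was 0.19.

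Many members are transcription factors. FOS, a subunit of the AP-1 complex, measured 37.9, 36.9 and 36.3 CPM in the SpABE intergenic libraries and 60.3, 59.9 and 60.6 CPM under the NRF1 guide, against 17.6, 15.6 and 15.3 CPM and 13.6, 12.6 and 14.8 CPM with SpCBE. All SpABE NRF1 libraries lay above all others, and the SpCBE groups did not overlap either, in the opposite direction. The difference was 0.94 (SE 0.08, adjusted p = 1.28e-08), and its control level was itself higher with SpABE than with SpCBE by 1.20 on the log2 scale. KLF4, a zinc-finger factor of epithelial differentiation and pluripotency, measured 13.9, 13.6 and 13.7 CPM and then 24.2, 23.8 and 23.9 CPM with SpABE, and 14.1, 12.5 and 12.6 CPM and then 12.8, 10.8 and 12.5 CPM with SpCBE. It rose with SpABE and its SpCBE groups overlapped, with a difference of 0.93 (SE 0.09, adjusted p = 4.07e-07) and control levels that were 0.07 apart on the log2 scale. JUNB, another AP-1 subunit, differed by 0.78 (SE 0.08), EGR3 by 1.18 (SE 0.21), FOSL2 by 0.59 (SE 0.07) and the nuclear receptor NR4A1 by 0.53 (SE 0.08). ATF3, EGR1, KLF10, JUN, FOSB and IER2 passed the adjusted p with smaller differences, between 0.30 and 0.48. The control level of EGR1 was higher with SpABE by 1.85 on the log2 scale, at a mean of 53 CPM against 14.7 CPM. That of JUNB was lower by 0.50, and its mean in the SpABE NRF1 libraries, 31.9 CPM, was no higher than in the SpCBE intergenic libraries, 32.1 CPM.

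Phosphatases that act on MAP kinases are also in this list. DUSP1, a phosphatase that inactivates MAP kinases, measured 48.6, 49.5 and 49.1 CPM in the SpABE intergenic libraries, 81.7, 80 and 80.2 CPM under the SpABE NRF1 guide, 50.5, 47.9 and 50.2 CPM in the SpCBE intergenic libraries and 45.3, 46.9 and 47.3 CPM under the SpCBE NRF1 guide. It rose 1.64-fold with SpABE, its change with SpCBE had an adjusted p of 0.0717, and the difference was 0.81 (SE 0.05, adjusted p = 1.44e-10). The 2 sets of intergenic libraries overlapped in their DUSP1 level. DUSP5, a nuclear phosphatase specific to ERK, differed by 1.16 (SE 0.12), DUSP4 by 0.55 (SE 0.11), DUSP6 by 1.03 (SE 0.23) and ZFP36, which destabilises AU-rich messages, by 0.63 (SE 0.12). The phosphatase DUSP2, at a difference of 0.00 (adjusted p = 0.999) and 1.53 CPM on average, and IER3, at 0.36 (adjusted p = 0.124), did not pass. BTG2, an antiproliferative gene that is also a p53 target, was the single member with a lower difference, -0.41 (SE 0.06, adjusted p = 0.000143). It went from 94.8, 94.1 and 86.5 CPM to 65.5, 62.3 and 63.5 CPM with SpABE and from 91.5, 96.2 and 91.5 CPM to 88.9, 88.7 and 79.7 CPM with SpCBE, so that it fell with SpABE while the change with SpCBE missed the threshold (adjusted p = 0.0514).

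Further genes among the largest positive differences at 5 CPM or more had varied functions. HBEGF, a ligand of the EGF receptor, differed by 0.87 (SE 0.07), from 13.4, 13 and 13 CPM to 22.4, 20.8 and 21.5 CPM with SpABE and from 14.3, 14 and 14.8 CPM to 13.2, 13 and 12.5 CPM with SpCBE. GEM, a small GTPase, differed by 1.11 (SE 0.10), as it rose 2.16-fold with SpABE and its levels overlapped between guides with SpCBE. ARC, an activity-regulated protein of synapses, differed by 0.88 (SE 0.11), although its mean in the SpABE NRF1 libraries, 14 CPM, did not exceed that in the SpCBE intergenic libraries, 15.3 CPM, since its control level was 9.13 CPM with SpABE. VGF, a neuropeptide precursor, differed by 1.14 (SE 0.17). CXCR4, a chemokine receptor, differed by 0.95 (SE 0.10) because it rose by 0.50 with SpABE and fell by 0.45 with SpCBE. ZNF296, a zinc-finger protein, and GPR50, an orphan receptor, differed by 0.95 (SE 0.11) and 0.87 (SE 0.15). For GPR50, the change with SpCBE was 0.02 (adjusted p = 0.922).

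Targets of the YAP and TEAD transcription factors, which respond to cell shape and density, overlapped with these. Of 23 tested, 4 had a higher difference (17.4%), all of them called, and none a lower one. They were GADD45B at 0.80 (SE 0.05), CCN1 at 0.60 (SE 0.06), CCN2 at 0.88 (SE 0.14) and ANKRD1 at 0.82 (SE 0.12), and CCN1 and CCN2 are also in the immediate-early list. CCN1 and CCN2 encode secreted matricellular proteins and ANKRD1 a cardiac ankyrin-repeat protein. ANKRD1 stood at 32.6, 30.4 and 28 CPM in the SpABE intergenic libraries and at 12.6, 9.51 and 11.5 CPM in those of SpCBE, so its control levels differed as well, and with nSaCas9 it fell by 0.87 under the NRF1 guide. The median of the whole list was 0.07.

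**Figure D3:**
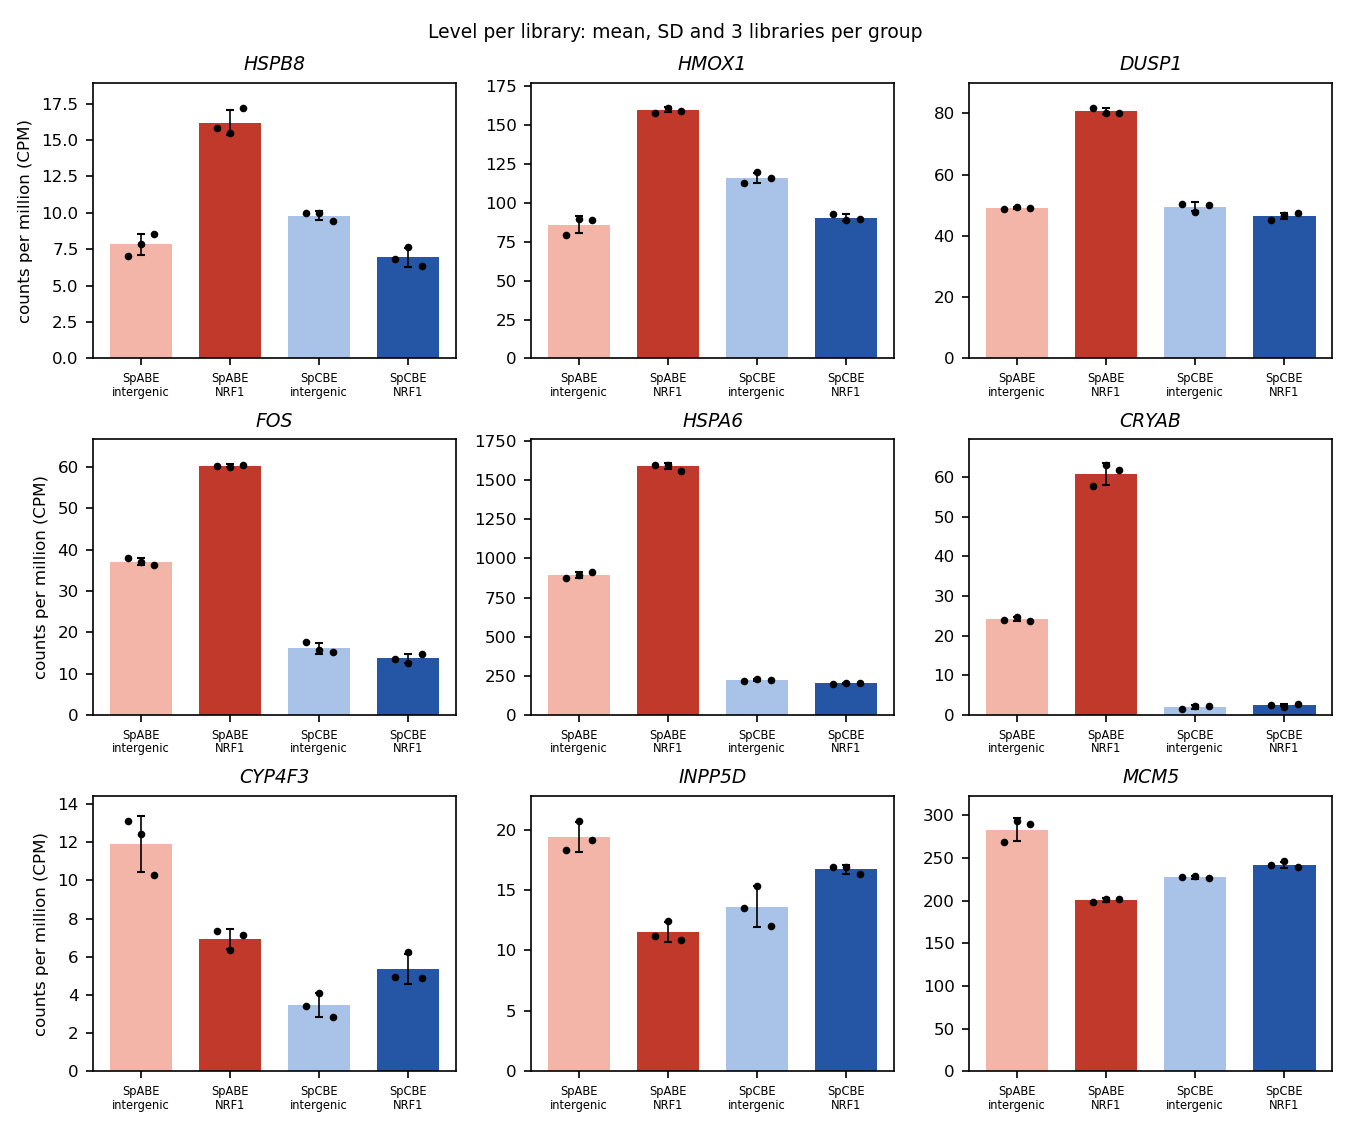
Levels of 9 genes in CPM (y axes) in the 4 groups (x axis). Bars are means of 3 libraries, error bars are SD and points are libraries. HSPB8, HMOX1, DUSP1, FOS, HSPA6 and CRYAB were highest in the 3 SpABE NRF1 libraries, and MCM5 was lowest there.

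HSPB8 had the largest positive difference among the called genes at 5 CPM or more. It encodes a small heat-shock protein that works with the co-chaperone BAG3 to clear misfolded proteins (chr12:119171555-119224855, plus strand). It measured 7.06, 7.88 and 8.56 CPM in the SpABE intergenic libraries and 15.8, 15.5 and 17.2 CPM under the NRF1 guide, a 2.07-fold rise. With SpCBE it measured 10, 9.96 and 9.45 CPM and then 6.84, 7.64 and 6.35 CPM, a fall to 0.707 of the control. No guide groups overlapped, and the difference was 1.55 (SE 0.11, adjusted p = 1.63e-09). With the nSaCas9 adenine editor HSPB8 fell by 1.56 (adjusted p = 1.56e-13), so the 3 editors did not share a direction.

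Of 30 heat-shock genes, 10 had a higher difference (33.3%), none a lower one, and 5 were called. The median difference of the list was 0.10, and without SpABE intergenic replicate 1 a single gene was lower. HSPA6, a strictly inducible HSP70, measured 877, 896 and 915 CPM and then 1600, 1600 and 1560 CPM with SpABE, and 217, 229 and 224 CPM and then 199, 203 and 205 CPM with SpCBE. It rose with SpABE and fell with SpCBE by 0.14, with a difference of 0.96 (SE 0.04, adjusted p = 2.25e-13), on control levels that were 2.01 apart on the log2 scale. Its near-identical copy HSPA7 can share its reads. CRYAB, a small heat-shock protein of lens and muscle, measured 24, 24.7 and 23.7 CPM and then 57.7, 63.1 and 61.7 CPM with SpABE but at most 2.66 CPM in any SpCBE library, with a difference of 1.06 (SE 0.16, adjusted p = 0.000147).

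HSPB1 differed by 0.63 (SE 0.06) and HSPA1B by 0.53 (SE 0.06), the latter uncertain because HSPA1A is nearly identical, and 0.50 without SpCBE intergenic replicate 1, which took it just under the limit for a call. The control levels of both were also higher with SpABE, by 1.15 and 1.22. BAG3, the partner of HSPB8, differed by 0.28 (SE 0.04), HSP90AA1, the inducible HSP90, by 0.24 (SE 0.05), HSPH1, a nucleotide exchange factor, by 0.19 (SE 0.05), and the HSP90 co-chaperones FKBP4 and STIP1 by 0.16 each. With SpABE 17 of the 30 genes had all NRF1 libraries above the intergenic ones (21.7% of all genes did). With SpCBE 7 did (20.3%) while 10 had them all below (18.5%). With nSaCas9, 16 of the 30 rose under the NRF1 guide at the adjusted p and 5 fell (16.9% and 15.5% of all genes). The median change of the list with nSaCas9 was 0.11.

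HMOX1, which breaks down haem and is induced by oxidative stress through NFE2L2 (chr22:35380361-35394214, plus strand), differed by 1.25 (SE 0.05, adjusted p = 1.42e-13). It measured 79.6, 89.7 and 89 CPM and then 158, 161 and 159 CPM with SpABE, and 113, 120 and 116 CPM and then 93, 89.3 and 89.4 CPM with SpCBE. The 4 groups did not overlap between guides, and with nSaCas9 the change was close to 0. The ferritin genes FTL and FTH1, which store the iron that haem breakdown releases, differed by 0.44 (SE 0.04) and 0.33 (SE 0.04), and neither changed with SpCBE at the threshold. Of 19 NFE2L2 targets 5 had a higher difference (26.3%) and 1, TALDO1, a lower one. OSGIN1 and TXNRD1 were the other 2 that were higher. The count of higher members was 3 without any 1 of SpABE intergenic replicates 1 and 2, SpABE NRF1 replicate 2, SpCBE intergenic replicate 2 and SpCBE NRF1 replicates 1 and 2, and that of lower members was 2 without SpABE intergenic replicate 1.

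The unfolded protein response raises chaperones and folding factors of the endoplasmic reticulum. Of 22 of its genes, 11 had a higher difference (50%) and 11 did not pass the test, none was called, and the median was 0.14. HSPA5, the HSP70 of that compartment, measured 875, 895 and 899 CPM and then 1020, 994 and 996 CPM with SpABE, and 884, 898 and 923 CPM and then 826, 795 and 819 CPM with SpCBE. It rose by 0.17 and fell by 0.15 without overlap of the libraries, on intergenic levels that overlapped between editors, with a difference of 0.32 (SE 0.04, adjusted p = 1.59e-06). XBP1, a transcription factor of this response, differed by 0.37 (SE 0.05), HYOU1 by 0.24 (SE 0.04) and the lectin chaperone CANX by 0.22 (SE 0.04). With SpABE 14 of the 22 genes had all NRF1 libraries above the intergenic ones (21.7% of all genes did). With SpCBE none did (20.3%), while 9 had them all below (18.5%). Of the lists with no lower member, 1 heat-shock gene, 1 hypoxia target and 0 genes of the unfolded protein response or the YAP and TEAD list were lower at an unadjusted p under 0.05. The share of all genes at that limit was not counted. DESeq2 passed 0 heat-shock, unfolded protein response or YAP and TEAD genes as lower.

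In the integrated stress response, which ATF4 directs when translation initiation is slowed, 9 of 30 genes had a higher difference (30%) and 3 a lower one (10%). The median of the list was 0.07. ATF4 itself differed by 0.08 (SE 0.03, adjusted p = 0.123), and ASNS, PSAT1, MTHFD2 and PHGDH did not pass either. NUPR1 was the single called member, at 0.62 (SE 0.19, adjusted p = 0.041) and a mean of 4.23 CPM. With nSaCas9 NUPR1 fell by 1.68. PPP1R15A, which lets translation resume, differed by 0.46 (SE 0.03), the amino acid transporter subunit SLC3A2 by 0.45 (SE 0.04) and DDIT3, a factor of prolonged stress, by 0.49 (SE 0.06). The lower ones were SHMT2, PSPH and CTH, genes of serine and cysteine metabolism, at -0.26, -0.23 and -0.19. Of 22 hypoxia targets, 7 had a higher difference (31.8%) and none a lower one. VEGFA, a growth factor of blood vessels that is also in the integrated stress response list, differed by 0.41 (SE 0.07). The single called hypoxia target was ANKRD37, at 1.04 (SE 0.33, adjusted p = 0.0479) and a mean of 1.18 CPM. The count of 7 was 3 or 4 without any 1 of SpABE intergenic replicate 1, SpABE NRF1 replicates 1 and 3, SpCBE intergenic replicates 2 and 3 and SpCBE NRF1 replicates 1 and 2.

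**Figure D4:**
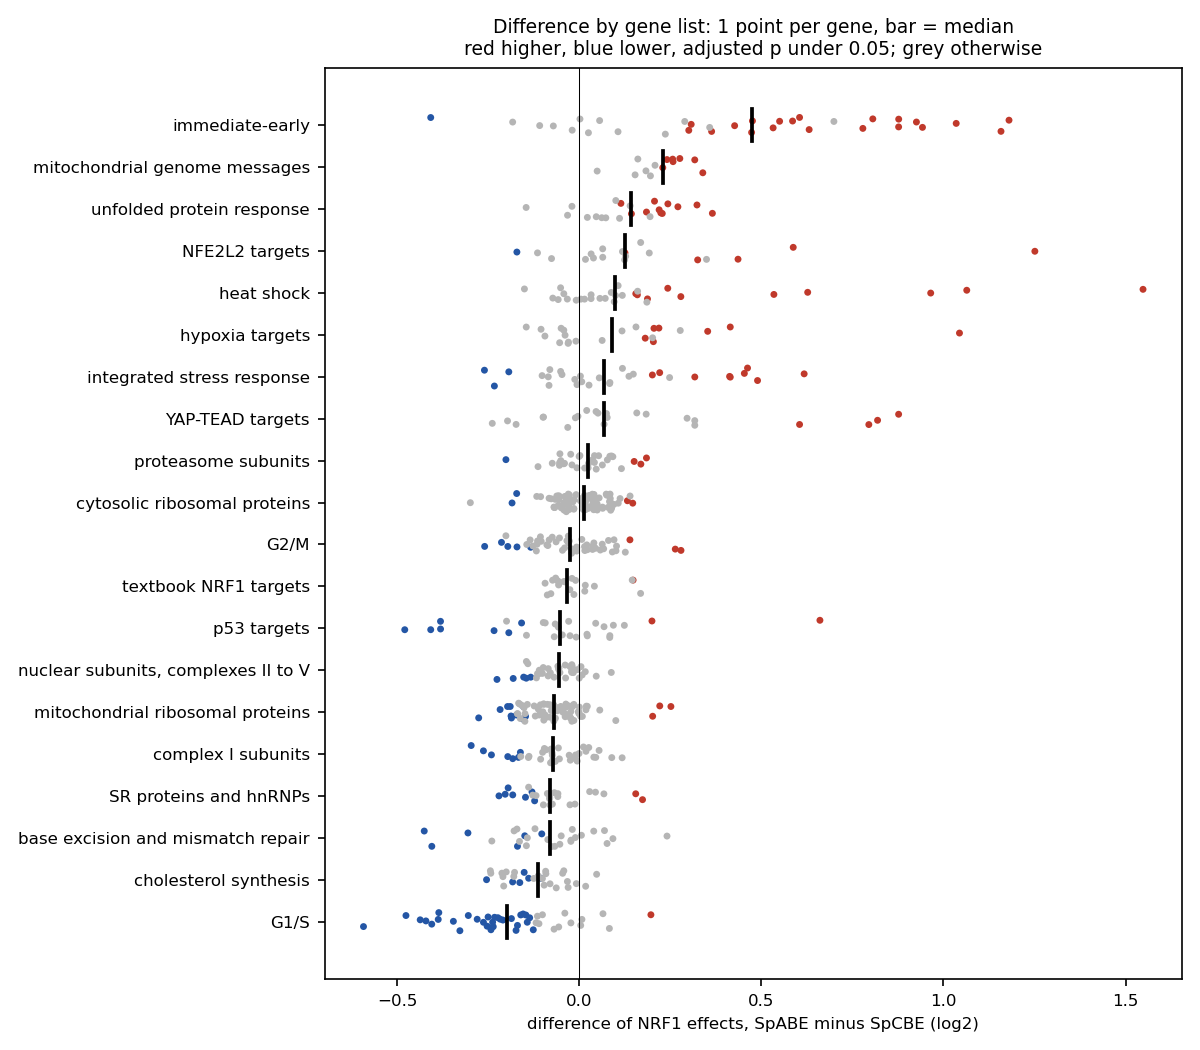
Difference of the NRF1 effects, SpABE minus SpCBE, on the log2 scale (x axis) for the tested members of 20 gene lists (y axis). Each point is a gene, red if higher and blue if lower at an adjusted p under 0.05, and black bars are medians. Immediate-early genes had the highest median, 0.47, and G1/S genes the lowest, -0.20.

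Genes that are transcribed at the transition from G1 to S phase lay on the other side. These encode the replicative helicase, the polymerases and their loaders, and are known targets of E2F factors. Of 44 tested, 31 had a lower difference (70.5%, beside 4.42% of all genes) and 1 a higher one, with a median of -0.20 from -0.12 with SpABE and 0.07 with SpCBE. With SpABE, 30 of the 44 had all NRF1 libraries below all intergenic ones (22.8% of all genes did), and with SpCBE 24 had them all above (20.3%) and 8 below. Over the 23 alternatives 27 to 32 were lower. The sizes were small, and 1 gene, MCM5, was called.

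MCM5, a subunit of the replicative helicase, measured 268, 293 and 289 CPM in the SpABE intergenic libraries and 198, 202 and 202 CPM under the NRF1 guide. With SpCBE it measured 227, 229 and 226 CPM and then 242, 246 and 239 CPM. It fell by 0.50 with SpABE and rose by 0.09 with SpCBE, without overlap of the guide groups in either, and the difference was -0.59 (SE 0.04, adjusted p = 1.05e-09). Its SpABE control level was 0.32 above that of SpCBE. The other helicase subunits MCM4, MCM6, MCM3 and MCM7 differed by -0.24, -0.24, -0.16 and -0.13, and MCM2, at -0.11, did not pass the test (adjusted p = 0.0787).

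GINS2, of the GINS complex, differed by -0.42 (SE 0.05), GINS3 by -0.23 and GINS4 by -0.21, CDC45 by -0.24, and the helicase loader CDC6 by -0.25, which rose with SpCBE by 0.18. Of the clamp loader, RFC2 differed by -0.41 and RFC5 by -0.24, and of the chromatin assembly factor, CHAF1B by -0.44 and CHAF1A by -0.15. The fork protector TIPIN differed by -0.39 and the regulators E2F1 and E2F2 by -0.39 (SE 0.06) and -0.26 (SE 0.05). CLSPN, a mediator of the replication checkpoint, was the single gene with a higher difference, 0.20 (SE 0.06, adjusted p = 0.0309), and no G1/S gene was higher without any 1 of SpABE intergenic replicate 2, SpABE NRF1 replicates 1 and 3, SpCBE intergenic replicates 1 and 3 and SpCBE NRF1 replicates 1 and 3.

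POLA2, POLD1 and UHRF1 fell with both editors and had a lower difference. POLA2, the second subunit of polymerase alpha, fell by 1.74 with SpABE and by 1.26 with SpCBE, a difference of -0.48 (SE 0.09, adjusted p = 0.000722). POLD1, the catalytic subunit of polymerase delta, fell by 0.73 and 0.39, and UHRF1, which recruits the maintenance methyltransferase to replicated DNA, by 0.63 and 0.33. Their differences were -0.35 (SE 0.07) and -0.30 (SE 0.04). These 3 also fell with nSaCas9, by 1.91, 0.74 and 0.37. Of the 44 G1/S genes, 12 rose and 10 fell with nSaCas9 at the adjusted p (16.9% and 15.5% of all genes). The list's median change with nSaCas9 was 0.03.

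**Figure D5:**
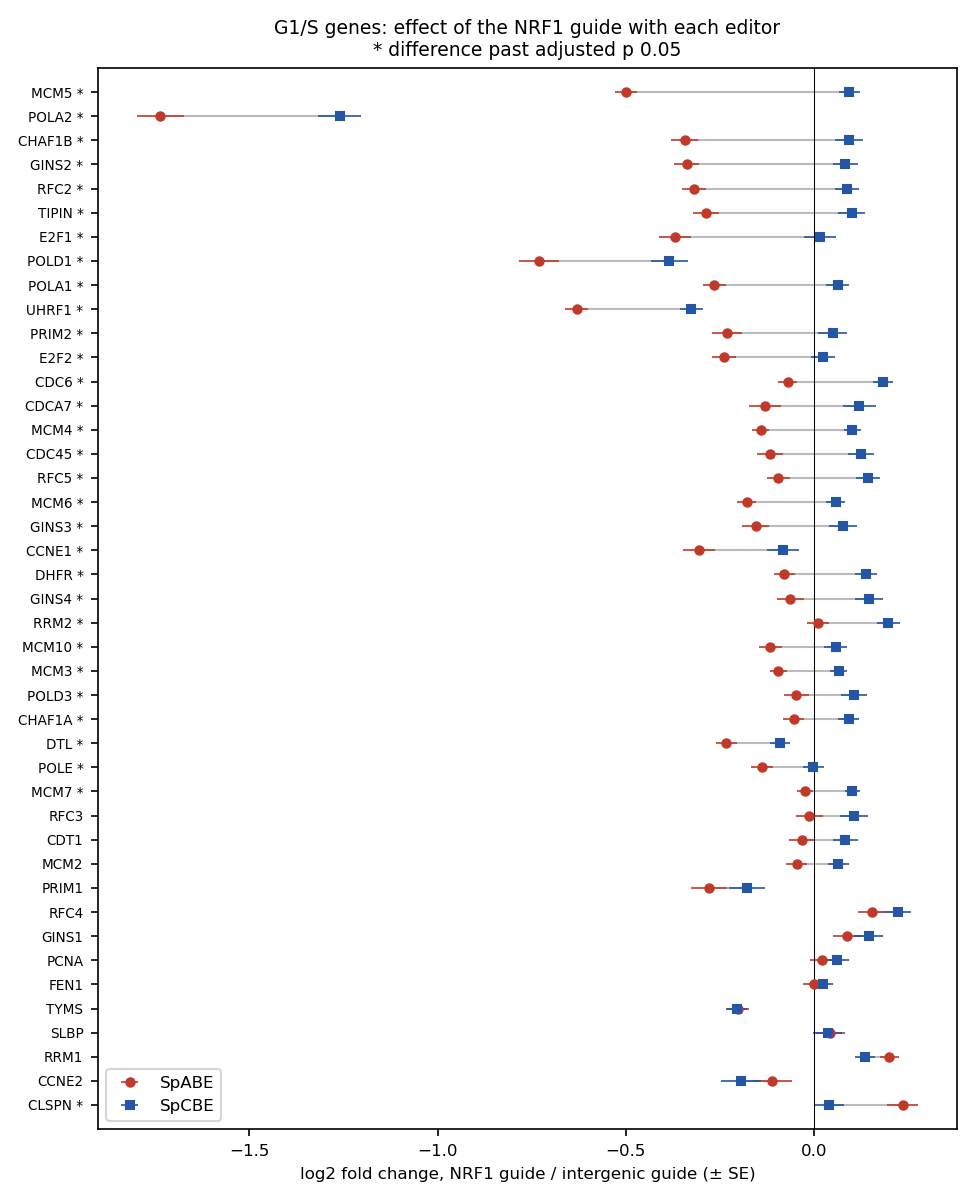
Log2 fold change of 43 of the 44 G1/S genes under the NRF1 guide (x axis, bars are SE) with SpABE (red circles) and SpCBE (blue squares), ordered by their difference. Stars mark the genes whose difference passed an adjusted p of 0.05. For 38 of the 43 genes drawn the SpABE point lies to the left of the SpCBE point.

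Other parts of the DNA replication and cell cycle programme showed less. Of 52 G2/M genes, which act at chromosome condensation and mitosis, 3 had a higher difference (CKS2, CDCA8 and TPX2). A lower one was found in 5 (MAD2L1, ANP32E, LBR, KIF20B and KIF20A). These were 5.77% and 9.62%, beside 4.54% and 4.42% of all genes, and the median was -0.02. The 5 became 2 or 3 when any 1 library was left out other than SpABE intergenic replicate 3, SpCBE intergenic replicate 1 and SpCBE NRF1 replicate 3. Of 28 base excision and mismatch repair genes, 6 had a lower difference (21.4%) and none a higher one. Among them were the exonuclease EXO1 (-0.31) and the DNA ligase LIG1 (-0.43). None of the uracil or alkyladenine glycosylases of the list passed. Of 15 adenosine and cytidine deaminases 1 was higher (6.67%, beside 4.54% of all genes), the tRNA deaminase subunit ADAT3, at 0.44 (SE 0.09).

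Of 28 p53 targets, 7 had a lower difference (25%) and 2 a higher one (7.14%), beside 4.42% and 4.54% of all genes. DDB2, which recognises ultraviolet damage, differed by -0.48 (SE 0.05), as it fell by 0.27 with SpABE and rose by 0.21 with SpCBE, and FDXR, a mitochondrial reductase, by -0.38 (SE 0.07). CDKN1A, the cell cycle inhibitor p21, differed by 0.20 (SE 0.05). TP53I3, an oxidoreductase, differed by 0.66 (SE 0.12), but stood at 4.1, 4.5 and 4.45 CPM in the SpABE intergenic libraries and at 18, 18.6 and 18 CPM in those of SpCBE. The count of lower members was 4 without SpABE NRF1 replicate 3.

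The nuclear and the mitochondrial genes of respiration leaned in opposite directions, both by small amounts. All 13 messages of the mitochondrial genome had a positive difference, with a median of 0.23, and 7 passed the test (53.8%). MT-ND2, a subunit of complex I, differed by 0.32 (SE 0.06, adjusted p = 0.00243), as it rose by 0.13 with SpABE and fell by 0.19 with SpCBE. These counts rested on few libraries, as 2 genes passed without SpABE NRF1 replicate 2 or without SpCBE NRF1 replicate 1, and 4 without SpABE intergenic replicate 3 or SpCBE NRF1 replicate 3. Of 37 nuclear complex I subunits, 7 had a lower difference (18.9%) and none a higher one, led by NDUFB4 at -0.30 (SE 0.06) and NDUFA9 at -0.26 (SE 0.05). That number was 3 or 4 without SpABE intergenic replicate 2, SpABE NRF1 replicate 1, SpCBE intergenic replicate 1 or any 1 of the SpCBE NRF1 libraries.

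Of 40 nuclear subunits of complexes II to V, 5 had a lower difference (SDHA, CYC1, ATP5MC2, ATP5PB and ATP5PD), and 1 to 3 when any 1 library was left out other than SpABE intergenic replicate 1 and SpCBE intergenic replicate 2. SDHA, which holds the flavin of complex II, decreased by 0.94 with SpABE and by 0.71 with SpCBE and held a difference of -0.23 (SE 0.04, adjusted p = 0.00136). Of 78 mitochondrial ribosomal protein genes 10 were lower (12.8%, beside 4.42% of all genes), led by MRPL15 at -0.28 (SE 0.05). MRPL49, MRPL24 and MRPL46 were the 3 higher ones (3.85%), no more than the 4.54% of all genes. That 10 became 3 to 6 when any 1 library was left out other than SpABE intergenic replicate 1, SpABE NRF1 replicate 2 and SpCBE intergenic replicate 3. Cytosolic ribosomal protein genes served as a comparison, with 2 of 86 higher and 2 lower (2.33% each) and a median of 0.01. With SpABE 75 of the 86 and with SpCBE 77 had all NRF1 libraries above all intergenic ones (21.7% and 20.3% of all genes). Their median changes were 0.16 and 0.15. The higher members were 5 without SpCBE intergenic replicate 1 and the lower ones 4 without SpCBE NRF1 replicate 2.

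Among further lists, 7 of 27 SR proteins and hnRNPs, which bind nascent RNA and direct splicing, had a lower difference (25.9%), such as HNRNPD at -0.20 (SE 0.04) and HNRNPA1 at -0.18 (SE 0.03), while SRSF2 and SRSF11 were higher, of which 1 remained in each fit that left out a library other than SpABE intergenic replicate 1 and SpCBE intergenic replicate 2. Of 29 cholesterol synthesis genes 6 were lower (20.7%), led by DHCR7 at -0.25 (SE 0.05), and 3 without SpABE NRF1 replicate 3 or SpCBE NRF1 replicate 1 or 3. Of 31 proteasome subunits 3 were higher (PSMD14, PSMC4 and PSMC2, 9.68%) and PSMD13 lower (3.23%), beside 4.54% and 4.42% of all genes. There were 5 higher without SpCBE intergenic replicate 1 and 2 lower without SpABE NRF1 replicate 2. Of 15 snoRNA host genes, TAF1D and SNHG8 were lower, at -0.31 and -0.34. None of 33 interferon-stimulated genes and none of 16 NF-kB targets passed the adjusted p of edgeR in either direction. At an unadjusted p under 0.05 3 interferon-stimulated genes were lower and 4 NF-kB targets higher. The share of all genes at that limit was not counted, so these counts have no background. DESeq2 passed 0 interferon-stimulated genes and 2 NF-kB targets, and leaving out 1 library gave 1 higher interferon-stimulated gene without SpABE intergenic replicate 3, and 1 higher NF-kB target without SpABE NRF1 replicate 2, SpCBE intergenic replicate 2 or SpCBE NRF1 replicate 3. The medians of the lists were -0.09 and 0.15. Among the 8 HEK293 markers, PAX2, a kidney transcription factor, was called with 0.89 (SE 0.26, adjusted p = 0.0308) at a mean of 1.73 CPM. It was not past the adjusted p without SpABE intergenic replicate 1 or 2, SpABE NRF1 replicate 3, SpCBE intergenic replicate 1 or 3 or any 1 SpCBE NRF1 library (0.0509 to 0.109).

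Among called genes at 5 CPM or more, CYP4F3 and INPP5D had the largest negative differences, while HSD3BP5 (-2.23), CLCA2 (-2.17) and MYPN (-1.52), all below that level, had larger ones. CYP4F3, an omega-hydroxylase of leukotrienes and fatty acids (chr19:15640897-15662825, plus strand), measured 13.1, 12.4 and 10.3 CPM and then 7.33, 6.34 and 7.12 CPM with SpABE, and 3.44, 4.11 and 2.86 CPM and then 4.93, 6.25 and 4.87 CPM with SpCBE. It fell with the first and rose with the second, with a difference of -1.39 (SE 0.18, adjusted p = 2.07e-05), and the 2 control levels were 1.76 apart. INPP5D, a lipid phosphatase best known from blood cells, measured 18.3, 20.7 and 19.1 CPM and then 11.2, 12.4 and 10.9 CPM with SpABE, and 13.5, 15.3 and 12 CPM and then 16.9, 16.9 and 16.3 CPM with SpCBE. Its difference was -1.05 (SE 0.10, adjusted p = 3.4e-07), and with nSaCas9 it fell by 0.74.

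KANK3, DNAH17, ASTN2 and METTL7A fell with SpABE by 1.46, 0.96, 0.92 and 0.74. Their changes with SpCBE were -0.75, -0.31, -0.26 and -0.16, of which the first and second passed the adjusted p. In contrast SELENOP, a selenium carrier, and the linker histone HIST1H1C rose with SpCBE by 0.50 and 0.43, while their changes with SpABE, -0.19 and -0.16, missed the threshold. HIST1H4H differed by -0.85 (SE 0.18) and HIST2H2BE by 0.68 (SE 0.11), and of 44 histone genes of the replication-dependent class 5 were lower and 1 higher, or 2 higher without SpABE NRF1 replicate 1. Histone genes have near-identical copies, and their counts are uncertain. The same holds for RASA4B, which differed by -0.94 (SE 0.22) because it rose by 0.88 with SpCBE, for the pseudogenes RRP7BP (-0.98, SE 0.09) and BTN2A3P (-0.95, SE 0.11), and for TBCE (-0.62, SE 0.14), whose symbol stands for more than 1 gene identifier. SOGA3 completed the negative genes with -0.66 (SE 0.13).

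Promoters of a few list members are printed to show the elements for which these groups are known. The genes were picked by hand from members that hold the element, with earlier results of these data known. The stretches come from RefSeq windows of 300 bases in GRCh38.p14, of which only bases before the start site are given. Capitals mark matches on either strand to the named motif.
DUSP1, cAMP response element TGACGTCA, chr5:172771196-172771340, minus strand: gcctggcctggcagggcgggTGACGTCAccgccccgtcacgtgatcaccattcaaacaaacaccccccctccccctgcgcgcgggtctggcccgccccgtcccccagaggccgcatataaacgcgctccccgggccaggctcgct
EGR1, CArG box, chr5:138465354-138465478, plus strand: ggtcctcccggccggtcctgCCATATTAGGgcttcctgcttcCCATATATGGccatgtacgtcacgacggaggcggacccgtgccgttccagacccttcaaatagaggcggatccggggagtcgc
HSPA6, heat-shock element, chr1:161524440-161524539, plus strand: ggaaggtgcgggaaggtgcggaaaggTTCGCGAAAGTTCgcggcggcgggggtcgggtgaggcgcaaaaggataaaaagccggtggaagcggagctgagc
HSPA5, endoplasmic reticulum stress element, chr9:125241344-125241443, minus strand: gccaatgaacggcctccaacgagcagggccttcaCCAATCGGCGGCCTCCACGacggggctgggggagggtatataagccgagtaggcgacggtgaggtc
MCM6, E2F element TTTCCCGC, TTTGGCGC or TTTCGCGC or a reverse complement, chr2:135876444-135876615, minus strand: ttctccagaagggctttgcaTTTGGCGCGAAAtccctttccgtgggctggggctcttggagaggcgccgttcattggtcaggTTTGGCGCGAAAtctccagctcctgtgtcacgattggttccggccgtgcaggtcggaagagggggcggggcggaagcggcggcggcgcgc
In the MCM6 stretch, matches to TTTGGCGC overlap with matches to the reverse complement of TTTCGCGC. Over the 27305 promoters, 1.98% held the cAMP response element, 1.29% the CArG box, 0.487% the heat-shock element, 0.0806% the endoplasmic reticulum stress element and 2.79% an E2F element. Over the 11609 matched genes tested these shares were 3.14%, 1.03%, 0.362%, 0.146% and 4.44%.

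The table matched 23 of the 33 immediate-early genes, and 2 of the 23 held the cAMP response element (DUSP1 and JUND) and 2 the CArG box (EGR1 and SRF). Of 27 matched heat-shock genes 5 held the heat-shock element (18.5%), and of 21 matched unfolded protein response genes 6 held the endoplasmic reticulum stress element (28.6%). The immediate-early and heat-shock holders that are not printed did not pass edgeR's test of the difference. Their adjusted p was 0.918 for JUND, 0.221 for SRF, 0.168 for CHORDC1, 0.901 for DNAJA1, 0.0905 for DNAJB6 and 0.064 for HSPA8. An E2F element was found in 21 of 37 matched G1/S genes (56.8%). The NRF1 element, a palindrome searched in its full length, was in 3 of the 92 matched genes called with a positive difference (3.26%), in none of the 56 called with a negative one and in 2.23% of the 11609 matched genes tested. A match describes the letters and not a bound site.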

How the data were processed

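Polyadenylated RNA of HEK293T cells was sequenced by the study in 18 libraries, 3 in each of 6 groups, from a stranded mRNA kit. The authors deposited 1 table of estimated counts per gene, some of them not whole, for GENCODE 30 genes on hg38. The submitters' processing notes name cutadapt 1.18, STAR 2.7.0f and DESeq2 1.46.0, while the counter, whether it used strand and how it handled multi-mapped reads were not given in the sources used here. Reads of near-identical or overlapping genes may therefore be split or lost. Another 18 columns of the table were not used.

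Counts were rounded to whole numbers and fitted with edgeR 4.0.16 (quasi-likelihood, TMM scaling, low-count filter of filterByExpr) in R 4.3.3 over all 6 groups, which share 1 estimate of the spread and leave 12 residual degrees of freedom. P-values were adjusted by Benjamini-Hochberg over the 17743 genes tested. Calls had both an adjusted p below 0.05 and a log2 difference beyond 0.5 in either direction. CPM were computed with TMM-adjusted library sizes, and 95% intervals use the t distribution. Genes were named as the 15 largest calls in each direction at a mean of at least 5 CPM, NRF1 and the study's targets, and up to 4 members of each list with the smallest p, without clone, antisense, LINC and LOC names among the largest calls. Other list members with values were named after their values were seen. Coordinates come from GENCODE 44. The members and lists were chosen with earlier results of these data known. Alternatives were other scalings, other filters, DESeq2 1.42.0, limma-voom (limma 3.58.1), the 12 libraries alone, a robust fit, replicate blocks and leaving out each library. The pipeline was tested on simulated data. Depth was 31676102 to 40687447 counts over the 12 libraries. Some results are not reported here.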

Additional observations from a re-analysis of the deposited data

Results flagged for a closer look

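The 2 editors' NRF1 effects differed in 253 genes at an adjusted p under 0.05 with edgeR and an absolute log2 difference over 0.5, and each value below is that difference, SpABE minus SpCBE, on the log2 scale. Positive differences among the named genes were 1.55 for HSPB8, 1.25 for HMOX1, 1.16 for DUSP5, 1.14 for VGF, 1.11 for GEM, 1.06 for CRYAB, 0.96 for HSPA6, 0.95 for ZNF296 and CXCR4, 0.94 for FOS and 0.93 for KLF4. They were 0.89 for PAX2, 0.88 for ARC and CCN2, 0.87 for GPR50 and HBEGF, 0.82 for ANKRD1, 0.81 for DUSP1, 0.80 for GADD45B, 0.78 for JUNB, 0.68 for HIST2H2BE, 0.66 for TP53I3, 0.63 for HSPB1, 0.60 for CCN1 and 0.53 for HSPA1B.

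Negative differences were -1.39 for CYP4F3, -1.05 for INPP5D, -0.98 for RRP7BP, -0.95 for BTN2A3P, -0.94 for RASA4B, -0.85 for HIST1H4H, -0.71 for KANK3, -0.69 for SELENOP, -0.67 for ASTN2, -0.66 for SOGA3, -0.64 for DNAH17, -0.62 for TBCE, -0.59 for MCM5 and HIST1H1C and -0.58 for METTL7A.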

How the results depend on the processing

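The number of genes called in the difference was 253 in the reported fit, 202 to 246 with 1 library left out, and 179 with DESeq2 to 366 without the low-count filter, which tests 34142 genes. The negative calls, 101, became 168 without that filter and 61 with DESeq2, and the 149 positive calls of the SpCBE effect became 99 with DESeq2. With 1 library left out, the PUDP difference lay between -0.1132 and 0.0348, positive only without SpCBE NRF1 replicate 2. All 30 genes named for their size were called in each of the 12 fits that leave out a library and in the 11 other alternatives. These fits reuse the libraries from which the 30 were picked as the largest calls, so they are no independent test of them. With DESeq2, 172 of the 253 remained called. Causes were not tested.

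Replicate numbers did not pair the libraries. The deviations of same-numbered libraries correlated at -0.06, 0.03 and 0.17 with SpABE and at -0.19, -0.25 and 0.16 with SpCBE over 10023 genes, and replicate 3 alone matched its own number best. With the replicate block within editor 209 genes were called, 201 of the 253 among them, and with the block across groups 258.

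Genes under 5 CPM are less certain, as 35.5% of their calls held in all fits that leave out 1 library, against 67% at 5 CPM or more.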
